A study of Rattus norvegicus with 10 samples.

Results

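The cholesterol synthesis genes described here are Hmgcs1, Idi1, Fdft1, Sqle, Lss, Cyp51 and Dhcr7, which encode enzymes of the pathway, and Srebf2, which encodes its main transcriptional regulator. Members were found by gene name in the deposited expression table, which lists 32545 genes; 8 of 8 were found and 8 passed the filter on low values. Expression was measured by poly(A) RNA sequencing of snap-frozen renal cortex from 5 male and 5 female PCK rats (strain PCK/CrljCrl-Pkhd1pck/Crl), 1 library per rat. All 10 rats carried the Pkhd1 mutation that makes this strain a model of autosomal recessive polycystic kidney disease, and no wild-type or treated rats were sequenced, so sex is the only contrast. The age was 12 to 14 weeks in the series description and 10 to 12 weeks in the methods. The labels give the tissue as kidney and do not give litters. The methods describe the rats, which were also used for metabolite measurements, as coming from a pair of litters with different parents. Which rat came from which litter is not in the labels, so all tests took the rats as independent, and an effect of litter was not tested.

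Cells make cholesterol from acetyl-CoA through mevalonate, isoprenoid units, squalene and lanosterol. The regulator SREBP2, the product of Srebf2, is held in the endoplasmic reticulum by SCAP and INSIG while sterols are plentiful, and moves to the nucleus and activates synthesis and uptake genes when sterols fall. Cells also take up cholesterol from lipoproteins and export the excess. In the kidney, tubule epithelium both synthesizes cholesterol and takes up lipoproteins.

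Because SREBP2 acts with NF-Y and SP1 at many of these promoters, the letters around the gene starts were read from RefSeq (build GRCr8, 250 bases before and 50 after 1 start per gene). That start was the listed start of the gene in 57.8% of all 33469 windows. Promoter windows were matched for 6 of 8 members, and not for Fdft1 and Sqle. The idealized sterol regulatory element TCACNCCAC, searched on both strands, was in 0 of 6 windows and in 1.12% of all 33469 windows of that length. The CCAAT letters of the NF-Y motif, on either strand, were in 4 of 6 (Hmgcs1, Idi1, Lss and Srebf2) against 37.5% of all windows. The GC box letters GGGCGG were in 5 of 6 against 33.1%, and neighbouring CCAAT and GC box matches can share an end letter. In 63 windows of the other pathway genes listed further on, CCAAT was in 43, the GC box in 39 and the sterol element in 0. No match says only that these letters are not in this window. The 150 bases before the start are shown for Idi1, which holds 2 CCAAT matches, and for Cyp51, which holds none, because their windows differ in this motif while r between the genes across rats was 0.79, a correlation that did not pass after adjustment (given further on). Capitals mark CCAAT matches, here read on the opposite strand as ATTGG.
Idi1, chr17:66547525-66547674, minus strand: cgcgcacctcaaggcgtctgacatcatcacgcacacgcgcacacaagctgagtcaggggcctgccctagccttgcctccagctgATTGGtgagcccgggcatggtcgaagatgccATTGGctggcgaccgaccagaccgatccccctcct
Cyp51, chr4:30991543-30991692, plus strand: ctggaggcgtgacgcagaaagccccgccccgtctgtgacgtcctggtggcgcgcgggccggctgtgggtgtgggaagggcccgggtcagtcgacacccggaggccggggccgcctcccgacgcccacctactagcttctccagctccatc

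Reads on genes ranged from 13912569 to 20285911 per library, and mitochondrially encoded genes took 14.3% to 26.8% of them. The library of female 2 stands apart, with the highest mitochondrial share. Its 5 urothelial marker genes sum to 12.8 FPKM against 0.200 to 0.422 in the males. This library also has the lowest sum of 9 proximal tubule markers of all 10 libraries (1766 FPKM). Female 4 also stands apart. Its sums of 5 fibroblast markers (71.1 FPKM), 5 macrophage markers (40.1 FPKM) and 5 markers of injured tubule (17.5 FPKM) are the lowest of all 10 libraries. Its sum of 9 proximal tubule markers (3534 FPKM) is the highest. The Y-linked genes Eif2s3y, Kdm5d and Uty matched the sex in each label. Of the 17631 genes tested, 2.40% passed an adjusted p of 0.05 in limma, 1.26% higher in females and 1.14% lower, and 1.32% also reached a 2-fold change. Levels are given in FPKM (fragments mapped to a gene, scaled to its length and to the size of the library), and fold changes are female over male on the log2(FPKM + 0.1) scale, where the median of all genes was −0.01. In bulk tissue, fewer cells of a type and less RNA per cell cannot be told apart.

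Fdft1, which encodes squalene synthase, the first enzyme committed to sterols, was the member that differed most between the sexes and rose in females. The other synthesis enzymes did not pass the test across all genes, and their mean levels lay above the males for Hmgcs1, Idi1, Lss and Cyp51 and below for Sqle and Dhcr7. By limma, 1 of 8 members passed the adjusted threshold, beside 2.40% of all genes, and 0 of 8 passed with a 2-fold change, beside 1.32%. At an unadjusted p under 0.05 the count was 3 of 8, beside 15.7% of all genes. By the exact permutation test of mean FPKM it was 2 of 8 (Fdft1 and Cyp51), beside 14.8%. Ranges of the sexes were separate for 1 of 8 members, beside 5.10% of all genes. The members' median log2 fold change was 0.22.

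Fdft1 (ENSRNOG00000021314, chromosome 15, 46339249 to 46367302, minus strand, Rnor_6.0) was measured at 29.6, 33.0, 28.01, 26.1 and 33.8 FPKM in males 1 to 5. In females 1 to 5 it was 62.8, 42.7, 49.6, 62.8 and 73.1 FPKM. The lowest female lay above the highest male, with female 2 lowest and female 5 highest. Mean levels were 30.1 ± 3.27 and 58.2 ± 12.0 FPKM (SD, n = 5 each), a ratio of 1.93. The log2 fold change was 0.93 with a 95% interval of 0.62 to 1.24 (SE 0.14, limma adjusted p = 0.00548, two-sided exact permutation p = 0.00794, the smallest that 5 against 5 can give). Between 1275 and 3672 reads lay on the gene in each library. With each library left out in turn, Fdft1 kept an adjusted p of 0.00159 to 0.0190 in limma and a log2 fold change of 0.84 to 1.04. Its neighbours did not pass the test. Ctsb, the cathepsin B gene 1637 bases away on the opposite strand, was measured at 1039 ± 226 FPKM in males and 1367 ± 357 in females (log2 fold change 0.39, limma adjusted p = 0.453). Neil2, 5183 bases away on the same strand, was at 0.754 ± 0.315 and 1.42 ± 0.575 FPKM (log2 fold change 0.80, limma adjusted p = 0.306).

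**Figure D1:**
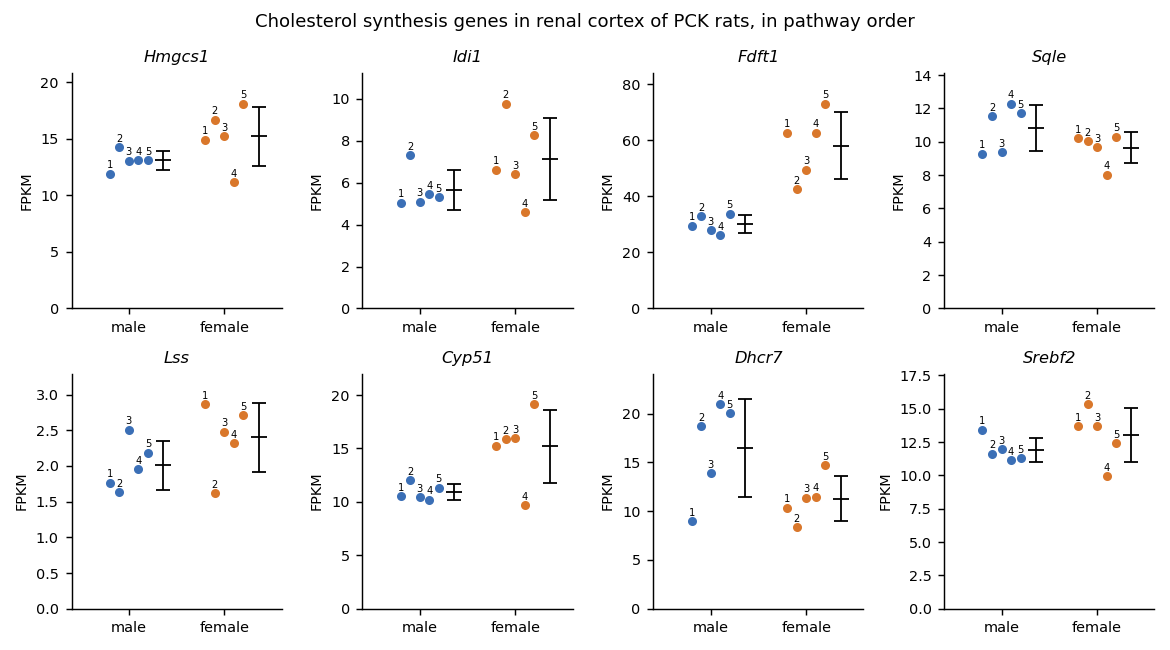
FPKM (linear axis from 0) of each of the 8 members in the 5 male (blue) and 5 female (orange) rats, numbered as in the labels, with the mean and SD of each sex beside the points. Fdft1 is the member whose sexes are separate, with males from 26.1 to 33.8 FPKM and females from 42.7 to 73.1 FPKM, and female 4 is the lowest female in 5 of the 8 genes.

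Sqle encodes squalene epoxidase, which acts directly after squalene synthase (ENSRNOG00000009550, chromosome 7, 99609191 to 99624732, plus strand). Males 1 to 5 were at 9.29, 11.6, 9.39, 12.3 and 11.7 FPKM. Females 1 to 5 were at 10.2, 10.03, 9.67, 8.02 and 10.3 FPKM. The ranges overlapped, with female 4 below all other rats. The means were 10.8 ± 1.40 and 9.65 ± 0.939 FPKM, a log2 fold change of −0.16 with a 95% interval of −0.40 to 0.08 (limma adjusted p = 0.522, exact permutation p = 0.135). With 1 rat left out it ran from −0.22 without male 1 to −0.10 without female 4. The ratio of Fdft1 to Sqle, described with no test since it was chosen after their values were seen, had a median of 2.89 in males (2.13 to 3.18) and 6.15 in females (4.26 to 7.83).

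Before squalene, Hmgcs1 makes HMG-CoA, the precursor of mevalonate (ENSRNOG00000016552, chromosome 2, 52431601 to 52445055, plus strand). It was at 11.9, 14.2, 13.0, 13.1 and 13.1 FPKM in males 1 to 5, and at 14.9, 16.7, 15.2, 11.2 and 18.1 FPKM in females 1 to 5. Female 4 was the lowest rat of all, and the other 4 females were above every male. With all rats the log2 fold change was 0.20 with an interval of −0.06 to 0.47 (limma adjusted p = 0.462, exact permutation p = 0.127). Leaving out 1 rat at a time gave 0.13 without female 5 (limma adjusted p = 0.698, exact permutation p = 0.262) up to 0.31 without female 4 (limma adjusted p = 0.141, exact permutation p = 0.00794).

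Idi1, isopentenyl-diphosphate isomerase, supplies the allylic isoprenoid unit (ENSRNOG00000016690, chromosome 17, 57976268 to 57984036, minus strand). It was at 5.05, 7.31, 5.08, 5.44 and 5.29 FPKM in males and 6.62, 9.75, 6.39, 4.58 and 8.25 FPKM in females, in label order. Male 2 stood above the other males, female 4 was the lowest rat, and the ranges overlapped. The log2 fold change was 0.30 with an interval of −0.11 to 0.72 (limma adjusted p = 0.485, exact permutation p = 0.167). With 1 rat left out it ran from 0.18 without female 2 (limma adjusted p = 0.614, exact permutation p = 0.341) to 0.45 without female 4 (limma adjusted p = 0.244, exact permutation p = 0.0317). Idi1 overlaps Wdr37 on the other strand, at 7.15 and 6.89 FPKM in males and females, and since it is not stated whether counting used strand, its level is uncertain.

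After squalene epoxidation, Lss closes the rings to lanosterol (ENSRNOG00000054549, chromosome 20, 12842884 to 12870497, minus strand). It was the lowest member, at 1.77, 1.63, 2.51, 1.96 and 2.19 FPKM in males and 2.87, 1.62, 2.48, 2.32 and 2.71 FPKM in females. The sexes overlapped, and female 2 was lowest of all. The log2 fold change was 0.23 with an interval of −0.15 to 0.62 (limma adjusted p = 0.574, exact permutation p = 0.198). It ran from 0.17 without female 1 (limma adjusted p = 0.718, exact permutation p = 0.357) to 0.36 without female 2 (limma adjusted p = 0.207, exact permutation p = 0.0397). The gene had 103 to 217 reads per library, the fewest of the members.

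Cyp51 encodes lanosterol 14-alpha-demethylase (ENSRNOG00000007234, chromosome 4, 27175243 to 27194018, plus strand). Males 1 to 5 were at 10.5, 12.0, 10.5, 10.2 and 11.3 FPKM, and females 1 to 5 at 15.3, 15.9, 15.98, 9.69 and 19.1 FPKM. Here 4 of 5 females lay above every male and female 4 lay below every male. The means were 10.9 ± 0.751 and 15.2 ± 3.43 FPKM, and the log2 fold change was 0.44 with an interval of 0.10 to 0.78. It did not pass across all genes (limma p = 0.0154, adjusted p = 0.188) and was under 0.05 in the exact permutation test (p = 0.0476). Cyp51 passed with female 4 left out, at a log2 fold change of 0.59 and a limma adjusted p of 0.0104, and had its lowest value, 0.35, without female 5 (adjusted p = 0.367). With 1 rat left out, its exact permutation p was over 0.05 in 8 of 10 cases (0.0556 to 0.0794), which were those without males 1, 3, 4 or 5 or females 1, 2, 3 or 5.

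Dhcr7, the enzyme of the final reduction of 7-dehydrocholesterol to cholesterol, had the lower mean in females (ENSRNOG00000020776, chromosome 1, 217018916 to 217034904, plus strand). Males 1 to 5 were at 8.98, 18.7, 13.9, 21.0 and 20.01 FPKM. Females 1 to 5 were at 10.4, 8.37, 11.4, 11.5 and 14.7 FPKM. Male 1 lay among the females, and males 2, 4 and 5 lay above all females. The means were 16.5 ± 5.01 and 11.3 ± 2.29 FPKM, and females were lower by −0.51 on the log2 scale (interval −1.01 to −0.00, limma p = 0.0497, adjusted p = 0.317, exact permutation p = 0.0873). With 1 rat left out the log2 difference ran from −0.71 without male 1 (limma adjusted p = 0.0796, exact permutation p = 0.0238) to −0.40 without male 4 (limma adjusted p = 0.460). Dhcr7 over Cyp51, also chosen after the values were seen, had a median of 1.56 in males (0.853 to 2.05) and 0.712 in females (0.527 to 1.18).

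Srebf2 encodes the regulator SREBP2 (ENSRNOG00000007400, chromosome 7, 123381077 to 123438603, plus strand). It was at 13.4, 11.6, 12.0, 11.1 and 11.3 FPKM in males and 13.7, 15.3, 13.7, 9.95 and 12.4 FPKM in females. The ranges overlapped and female 4 was the lowest rat. Females and males differed by 0.12 on the log2 scale with an interval of −0.13 to 0.37 (limma adjusted p = 0.679, exact permutation p = 0.286). With 1 rat left out the difference ran from 0.06 without female 2 (limma adjusted p = 0.821, exact permutation p = 0.571) to 0.21 without female 4 (limma adjusted p = 0.364, exact permutation p = 0.0317), and it was 0.04 with scaling by total reads. The microRNA gene Mir33 within Srebf2 is listed at 0 in all libraries.

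Per length of gene, Fdft1 was the most abundant member, with a mean over the 10 rats of 44.1 FPKM. Hmgcs1 (14.1), Dhcr7 (13.9), Cyp51 (13.1), Srebf2 (12.5) and Sqle (10.2 FPKM) formed the middle of the order, followed by Idi1 at 6.38 and Lss at 2.20 FPKM. Fdft1 was above Hmgcs1, Sqle above Idi1 and Idi1 above Lss in 5 of 5 males and 5 of 5 females. The rank of neighbours within the middle of the order varied: Hmgcs1 was above Dhcr7 in 1 male and 4 females, and Dhcr7 above Cyp51 in 4 males and 1 female.

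Rats of 1 sex differed from each other in several members at a time. Female 4 was the lowest female in 5 members (Hmgcs1, Sqle, Idi1, Cyp51 and Srebf2) and female 5 the highest in 5. Female 4 is the library with the lowest fibroblast, macrophage and injured tubule sums and the highest proximal tubule sum. The part of these cells in its low members was not tested. Female 2 was lowest in Fdft1, Lss and Dhcr7 and highest in Idi1 and Srebf2. Male 1 was the lowest male in 4 members. The coefficient of variation was larger in females for 6 of 8 members, which was so for 61.2% of all genes tested.

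**Figure D2:**
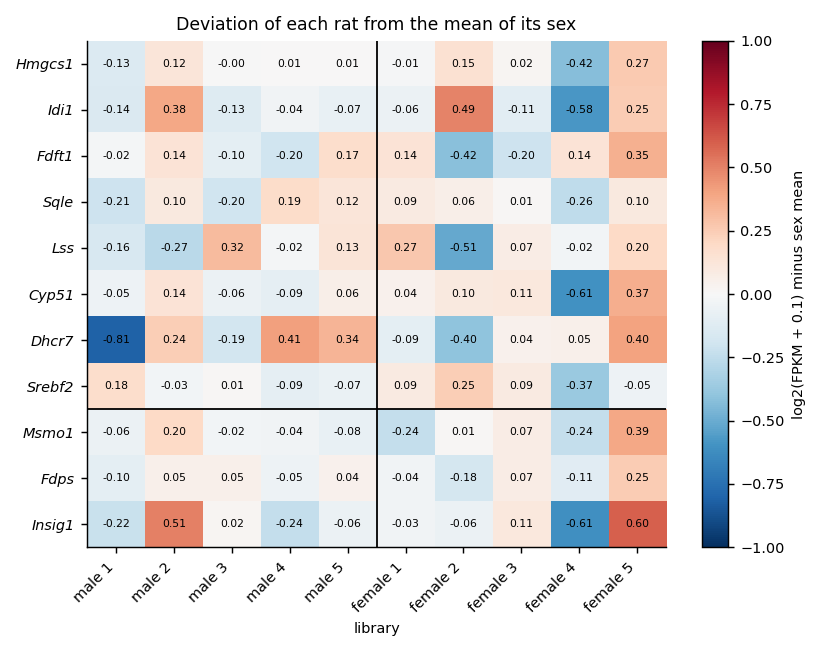
Difference of each library from the mean of its sex in log2(FPKM + 0.1), for the 8 members (above the line) and 3 other genes of synthesis and control, with males left and females right. Female 4 is 0.61 below the female mean in Cyp51 and 0.42 below in Hmgcs1, and 0.14 above it in Fdft1.

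Correlations were computed between members over the 10 rats after each sex's mean was removed (28 pairs, exact permutation within sex). Of these, 20 were positive, and r ran from −0.60 to 0.95 with a median of 0.22. By r over all 10 rats, Hmgcs1 and Cyp51 varied most alike (r = 0.95, exact permutation p = 0.00347, adjusted 0.0632; rho = 0.81, exact permutation p = 0.00826, adjusted 0.0771), and r was 0.67 without females 4 and 5. For Hmgcs1 and Idi1, r was 0.88 (exact permutation p = 0.00451, adjusted 0.0632) and rho 0.84 (exact permutation p = 0.00618, adjusted 0.0771), with r = 0.87 without the same rats. Idi1 and Cyp51 had r = 0.79 (exact permutation p = 0.0319, adjusted 0.179) and rho = 0.64 (exact permutation p = 0.0651, adjusted 0.288), with r = 0.70 without females 2 and 4. Fdft1 had a median r of 0.01 with the other members. Dhcr7 and Srebf2 ran opposite (r = −0.60, exact permutation p = 0.0306, adjusted 0.179; rho = −0.81, exact permutation p = 0.00556, adjusted 0.0771), and r was −0.22 without female 2 and male 1. In all, 7 pairs had an unadjusted exact permutation p of at most 0.05 and 0 of 28 passed after adjustment. Without female 4, or without female 5, 1 pair passed (Dhcr7 and Srebf2, r = −0.95 and −0.60, adjusted exact permutation p = 0.0194 in each). The members share each library, so its depth and composition are common to both genes of a pair.

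**Figure D3:**
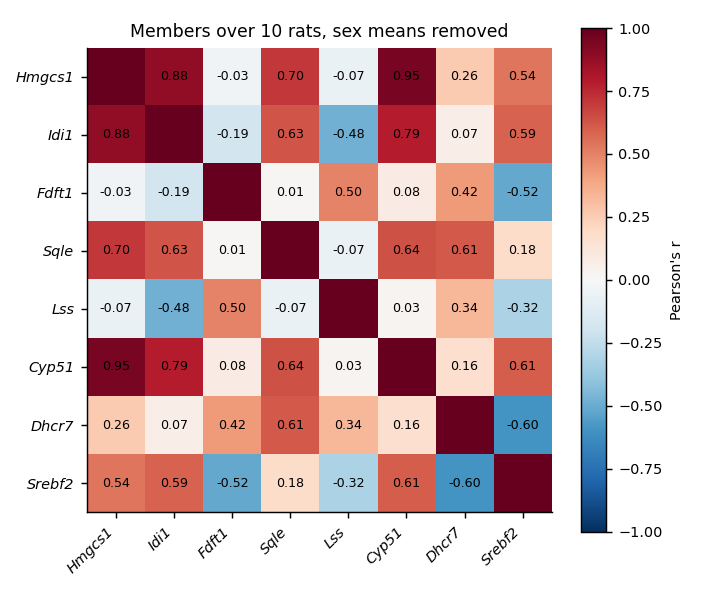
Pearson's r between members over 10 rats after the mean of each sex was removed, with genes in pathway order on both axes and colour from −1 to 1. Hmgcs1, Idi1 and Cyp51 have r of 0.79 to 0.95 with each other, while Fdft1 has −0.03, −0.19 and 0.08 with them.

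The genes nearest to the members' mean profile, by Pearson's r of sex-centred log2 values over the 10 rats, included no gene of the pathway lists among the closest 10 (r from 0.87 to 0.95). They were AABR07018165.1, Cenpt, Fam110c, AABR07067762.1, Dph5, Cidec, AABR07032751.1, Msantd2, AABR07054315.1 and Fam89a. Several lie near the floor. The fewest reads in a library were 0 for AABR07018165.1 and AABR07054315.1, 1 for AABR07067762.1, 6 for Fam89a and 9 for Cenpt. For the rest they were 34 to 201. Insig1, a target and brake of SREBP2, was 12th at r = 0.86, Fdps (farnesyl diphosphate synthase) 88th at 0.75 and Msmo1 219th at 0.69 of 17623 genes. With 10 rats and that many genes, such ranks are a description.

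The rest of the pathway was read from 6 lists of 77 genes, of which 73 were tested. By limma, 1 passed higher in females (Scd2) and 0 lower, beside 1.26% and 1.14% of all genes, and at an unadjusted p under 0.05 there were 7 higher and 8 lower, beside 15.7% of all genes in either direction. Among 12 other synthesis enzymes 0 passed in either direction, with 2 higher and 0 lower unadjusted and a median log2 fold change of 0.17. On the log2 scale 11 were higher in females and 1 lower, beside 48.8% of all genes higher. Hsd17b7, which acts in the removal of the C4 methyl groups, had the lowest log2 fold change of this list, −0.18 (limma adjusted p = 0.579). Tm7sf2, a sterol C14 reductase, had the largest, 0.50 (limma adjusted p = 0.456). Female 2 was at 2.56 FPKM and the other females at 7.14 to 9.20, and without female 2 the log2 fold change was 0.82 (limma adjusted p = 0.00454). Msmo1, the sterol C4 oxidase, was at 21.6 and 29.5 FPKM (log2 fold change 0.44, limma adjusted p = 0.0978).

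In the SREBP control list 0 of 9 passed, with 1 higher and 0 lower unadjusted. Insig1 was at 16.7, 27.8, 19.8, 16.5 and 18.7 FPKM in males and 29.0, 28.5, 32.0, 19.4 and 45.04 FPKM in females. Female 4 lay among the males, and the other females lay above every male. The mean difference on the log2 scale was 0.60 (limma adjusted p = 0.183, exact permutation p = 0.0238). Scap, the escort of SREBP, differed by 0.20 (limma adjusted p = 0.553), and Srebf1, the regulator of fatty acid synthesis, by −0.30 (limma adjusted p = 0.531).

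Among 10 uptake and transport genes tested 0 passed, with 1 higher and 2 lower unadjusted and a median log2 fold change of −0.07. Lipa, the lysosomal acid lipase that frees cholesterol from lipoprotein esters, had the largest log2 fold change upward, 0.30, with means of 45.04 ± 5.13 FPKM for males and 55.3 ± 4.20 for females (limma adjusted p = 0.129, exact permutation p = 0.00794). Lrp1, a large lipoprotein receptor also made by fibroblasts and macrophages, was at 6.52 ± 1.23 and 4.21 ± 1.09 FPKM (log2 fold change −0.64, limma adjusted p = 0.126, exact permutation p = 0.00794).

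**Figure D4:**
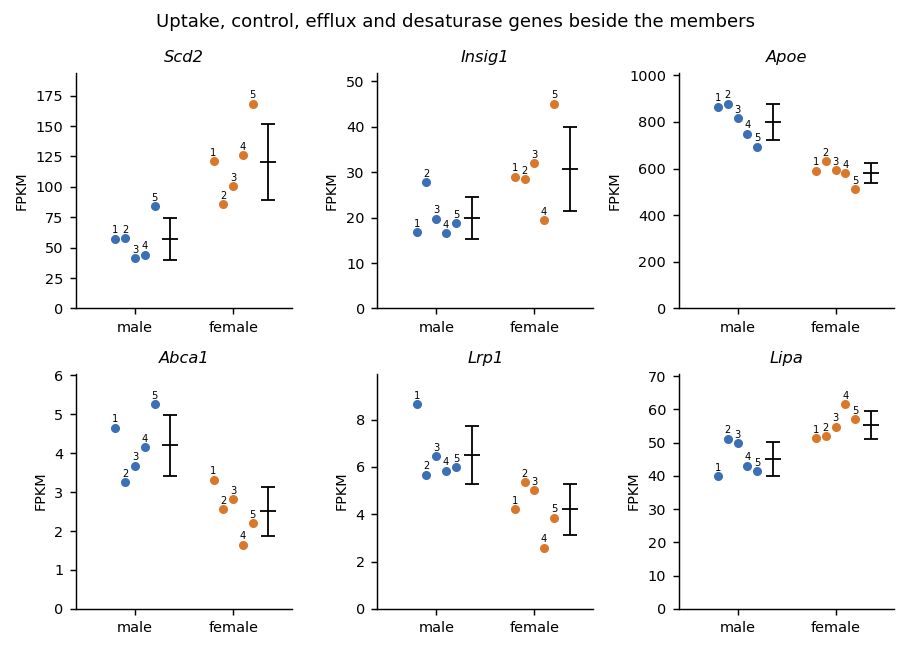
FPKM (linear axis from 0) in each male (blue) and female (orange) rat for genes of uptake (Lrp1, Lipa), control (Insig1), fatty acid desaturation (Scd2) and efflux (Apoe, Abca1), with mean and SD beside the points. Scd2 is at most 84.3 FPKM in males and at least 85.5 FPKM in females, and Apoe is lower in each female than in each male.

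Of 15 efflux, ester and oxysterol genes tested 0 passed, 4 were higher in females on the log2 scale and 11 lower, beside 48.8% of all genes higher, and the median was −0.23. Unadjusted, 0 higher and 5 lower were under 0.05, beside 15.7% of all genes in either direction. Apoe, the lipoprotein component, was at 801 ± 77.9 and 582 ± 43.9 FPKM with separate ranges (log2 fold change −0.46, limma adjusted p = 0.0636, exact permutation p = 0.00794). Abca1, the sterol exporter, was at 4.20 and 2.51 FPKM (log2 fold change −0.74, limma adjusted p = 0.0804), and Ch25h, which makes 25-hydroxycholesterol, had −0.76 (limma adjusted p = 0.156). Cyp39a1 had the largest log2 fold change upward, 0.15. Markers of other cell types stand beside this list. The 5 macrophage markers summed to 84.1 to 168 FPKM (males) and 40.1 to 97.8 FPKM (females), with 0 of 5 past the threshold. Fibroblast markers summed to 244 to 328 and 71.1 to 229 FPKM, with 5 of 5 below 0 on the log2 scale (−1.42 to −0.57) and 1 of 5 (Col3a1) past the adjusted threshold. Markers of injured tubule summed to 90.5 to 224 and 17.5 to 128 FPKM, with 4 of 4 tested below 0 (−1.43 to −0.56) and 1 (Sox9) past the adjusted threshold. Their part in these results was not tested.

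Of the 12 mevalonate branch genes tested 0 passed and 0 were under 0.05 unadjusted, with extremes of 0.15 (Nus1, a subunit of the dolichol-making enzyme) and −0.15 (Fntb, a farnesyltransferase subunit). Of 15 fatty acid genes tested 1 passed. Scd2, a stearoyl-CoA desaturase, was at 57.2, 57.9, 41.4, 44.2 and 84.3 FPKM in males and 120.9, 85.5, 100.6, 126.0 and 168.2 FPKM in females. The sexes were separate, with male 5 just under female 2. The log2 fold change was 1.08 (SE 0.21, limma adjusted p = 0.0233), and the call was lost in 7 of 10 fits with 1 library left out: each of males 1 to 4, female 1, female 4 and female 5 (limma adjusted p = 0.0512 to 0.0621), while its log2 fold change stayed between 0.95 and 1.24 in the 10 fits. Scd1 and Scd4 lie near Scd2 and are alike in sequence, so its reads could be shared, which was not tested. Means in males and females were 0.318 and 0.285 FPKM for Scd1, 1.19 and 0.681 for Scd4, and 57.0 and 120 for Scd2. Mlxipl had the lowest log2 fold change of the list, −0.28 (limma adjusted p = 0.167).

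**Figure D5:**
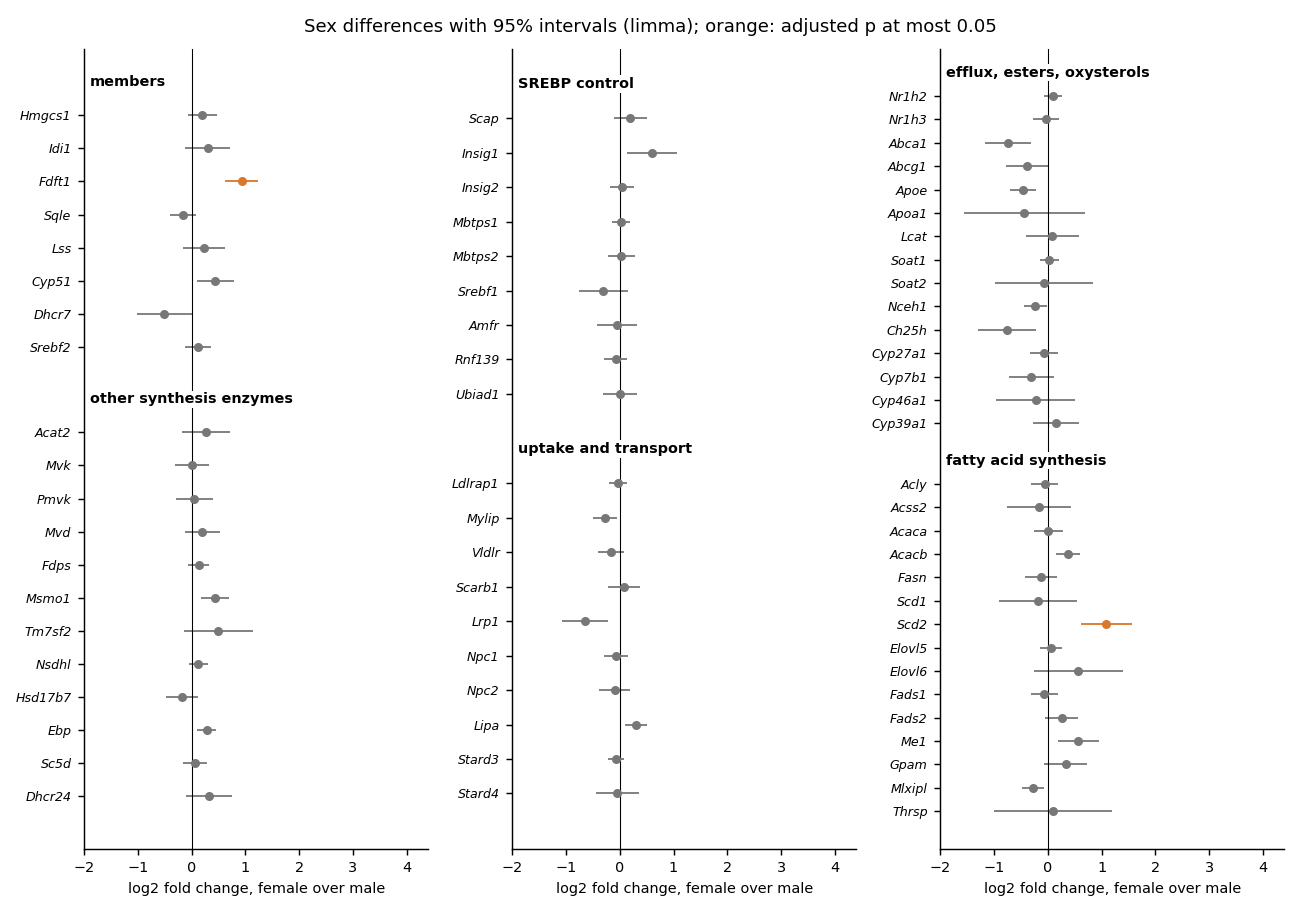
Female over male log2 fold changes with 95% intervals from limma for the 8 members and the tested genes of 5 other lists (the mevalonate branches are not drawn), on 1 linear scale from −2 to 4. Orange marks genes past the adjusted threshold of 0.05, which holds for Fdft1 and Scd2.

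Cell type markers were set beside Fdft1. Intercalated cell markers had a sum of 134 to 205 FPKM for males against 215 to 337 FPKM for females, separate between the sexes. The 5 markers were each higher in females at an unadjusted limma p under 0.05, beside 15.7% of all genes in either direction. Of these, 1 (Atp6v0d2) was past the adjusted threshold. Female 2 had the highest sum and was the lowest female in Fdft1. Principal cell markers had sums of 290.0 to 471 and 335 to 531 FPKM, 5 of 5 higher on the log2 scale and 1 (Avpr2) past the threshold (log2 fold change 0.44, limma adjusted p = 0.0469). Sums overlapped for the thick ascending limb (1026 to 1547 and 1086 to 1716 FPKM, 0 of 4 past the threshold) and the distal convoluted tubule (83.3 to 148 and 126 to 187 FPKM, 0 of 2 tested). Proximal tubule markers summed to 2003 to 3479 and 1766 to 3534 FPKM, with 4 of 9 above 0 and 5 below on the log2 scale. Of these, 1 (Cubn, higher in females) was past the adjusted threshold. Abundant genes weigh most in such sums: Umod ran from 877 to 1502.5 FPKM over the rats and Slc34a1 from 824 to 1658 FPKM. Adrenal cortex, a tissue of high cholesterol synthesis next to the kidney, gave sums of 0.911 to 1.48 and 0.898 to 1.37 FPKM, with 0 of 4 tested past the threshold, and its Cyp11b2 was at most 0.0660 FPKM. Of 5 adipocyte markers, Plin1, Lep and Ucp1 were below the filter and both tested ones had separate ranges. Cidec fell in females (8.94 ± 2.55 FPKM in males, 2.32 ± 0.666 in females, log2 fold change −1.89, limma adjusted p = 0.00156), and Adipoq had means of 3.89 and 6.75 FPKM (log2 fold change 0.74, limma adjusted p = 0.0731). Without female 2, the library with urothelial genes and the lowest proximal tubule sum, Fdft1 had a larger difference (log2 fold change 1.04, limma adjusted p = 0.00159). The part of intercalated, principal and proximal tubule cells in the Fdft1 difference was not tested.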

How the data were processed

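RNA of renal cortex from 5 male and 5 female PCK rats was analysed, grouped by the sex in the labels. Mapping by the sequencing provider used HISAT2 and Rnor_6.0 from Ensembl, and the authors deposited 1 table of FPKM with the gene length behind it. The submitters' processing notes name fastp, HISAT2 2.0.5, StringTie 1.3.3b and featureCounts 1.5.0-p3, and whether counting used strand is not given in the sources used here. The authors' differential test used DESeq2 on counts, which were not used here.

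Each FPKM divided by the worth of 1 read gave whole reads for 100% of values, within 0.01 read, which gave the depth. Replicates are separate rats. The most similar pair of libraries differed by more than counting noise (chi-square 10.2 per degree of freedom). Genes whose mean reached 0.1 FPKM were tested with limma 3.58.1 (lmFit and eBayes with trend, R 4.3.3) on log2(FPKM + 0.1), with Benjamini-Hochberg adjustment over all 17631. The fit was checked on simulated data. Single genes had a two-sided exact permutation test of mean FPKM (Python 3.11.15, numpy 2.4.6, pandas 2.3.3, scipy 1.17.1). Separate ranges mean that no value of 1 sex lies within those of the other.

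Members and lists were chosen with earlier results of these data known. Genes named are the members, list genes with an adjusted p of at most 0.05, the largest change in each direction per list, Insig1, Scap and Srebf1, and the 10 genes most like the members' mean profile. Msmo1, Fdps, Apoe, Abca1, the neighbours and the marker genes were named after their values were seen. Of 77 list symbols 76 were found (Scd was not matched), and Elovl6 has 2 identifiers. Some genes of the lists first written are not reported here and enter no list count. The marker gene Cyp11b1 was not matched. Alternatives were other pseudocounts (1 and 0.01), no filter and a filter at 1 FPKM, and median-ratio, quantile and total-read scaling. Others were eBayes without trend and robust, limma-voom on the recovered reads, a replicate block and each library left out. The median-ratio factor was 1.0076 in all 10 libraries, so that scaling hardly moved the libraries against each other.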

Additional observations from a re-analysis of the deposited data

Results flagged for a closer look

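In the 42 groups of 5 rats checked over 21 genes, 6 had a rat far from the other 4 of its sex (a gap to the nearest rat of over 0.71 of the group's range, which chance gives in about 1 group in 20). Among the members these were Sqle in female 4, at 8.02 FPKM, below its sex, and Idi1 in male 2, at 7.31 FPKM, above it. Among the related genes male 2 was high in Insig1 (27.8 FPKM) and Tm7sf2 (5.49 FPKM). Srebf1 was apart in male 3 at 10.8 FPKM and Lrp1 in male 1 at 8.66 FPKM.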

How the results depend on the processing

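Over all genes, 109 were higher and 123 lower in females past both thresholds. With a pseudocount of 1 these were 65 and 72, and with each library left out 82 to 114 and 89 to 148. Quantile normalization gave 121 and 105 and total-read scaling 97 and 135 (median of all genes −0.08). The replicate numbers did not pair the rats, since same-numbered rats had deviations correlated between −0.10 and 0.07 and 1 of 10 rats correlated best with its own number. A replicate block gave 89 higher and 87 lower, 1 member and 1 pathway gene. Fdft1 passed in all 11 other settings and all 10 fits with a library left out. Among these settings median-ratio scaling could hardly change a call, since its factor was 1.0076 in all 10 libraries. The number of members past the threshold was 1 to 2 with a library left out (2 without female 4, which adds Cyp51). The count of pathway genes was 0 to 4 with a library left out, against 1: it was 0 without males 1, 2, 3 or 4 or females 1, 4 or 5, when Scd2 was lost, and 4 without female 2 (Scd2, Apoe, Ch25h and Tm7sf2). It was 4 with limma-voom (Scd2, Apoe, Abca1 and Acacb), and 2 (Scd2 and Apoe) with a filter at 1 FPKM, quantile normalization, eBayes without trend, robust eBayes or total-read scaling. The cause was not tested. Pairs of members with an adjusted correlation p of at most 0.05 numbered 0 to 1 with a library left out, a check added after seeing the data, as was total-read scaling. No member changed direction under any setting run. Depth limits Lss most among the members, with as few as 103 reads, in female 2.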
